A study of Mus musculus with 2 samples.

Results

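The cells described here are the Hopx and Gdf10 positive glia of the embryonic mouse cerebellum, 548 of the 33294 cells that passed the filters in both libraries. A cell was a member when it held at least 1 UMI (a unique molecular identifier, which marks 1 captured transcript) of each of Hopx, Gdf10 and Slc1a3 and no UMI of Aqp4 or Hpse2, among barcodes that passed minimums of 1000 UMIs and 500 genes and whose mitochondrial share did not exceed 10%. The mutant library gave 259 members of 16482 cells (1.57%, interval 1.39 to 1.77) and the control library 289 of 16812 (1.72%, 1.53 to 1.93), a ratio of shares of 0.914 (0.770 to 1.085). The ratio was 0.438 in cells thinned to 3000 UMIs and 0.597 with Slc1a3 at 5 UMIs or more, an alternative chosen after seeing the data. All intervals are exact 95% intervals (Poisson for summed UMIs, Clopper-Pearson for shares, conditional binomial for ratios) and cover counting error only.

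The mutants carried Blbp-cre together with a Ctnnb1(ex3)fl/wt allele and Smarca4fl/fl, and had cerebellar lesions. Blbp-cre acts in radial glia and other neural progenitors. Without exon 3 beta-catenin, which carries Wnt signals to the nucleus, escapes degradation, and Smarca4 is the motor subunit of the chromatin remodeller BAF. The controls were cre-negative, and the labels do not say which floxed alleles they carried. Whole cerebella were taken at E16.5, 3 samples of each genotype were pooled, dead cells were sorted out with 7-AAD, and 40000 cells of each pool entered a 10x Genomics 3' library. With 1 pooled library per genotype there was no replicate, so no difference between genotypes was tested, and genotype and library cannot be told apart. Differences are given by their size, with 2-fold as the mark for calling a gene higher or lower. Members had a median of 14889 UMIs and 4407 detected genes in the mutant library and 12927 UMIs and 4154 genes in the control library, and 4397063 and 4110733 UMIs in all. Of the barcode sequences, 67 occurred among the kept cells of both libraries and 0 among the members of both.

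Bergmann glia are the unipolar astroglia of the cerebellum. They arise from radial glia, settle beside the Purkinje cells and send fibres to the pial surface, along which granule cells migrate. In mice they are known for the glutamate transporter Slc1a3, for AMPA receptors built of Gria1 and Gria4, and for Gdf10, a secreted protein of the TGF-beta family. Hopx, a small homeodomain protein that does not bind DNA, marks them during development, and Aqp4 is the water channel of astrocyte end-feet.

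The label was set beside genes that the rule did not use. The markers were lower in mutant than in control members, and the cells are therefore called members below, after the rule. At least 1 UMI of Gria1, Gria4, Gabrb1, Cyp26b1 or Timp4 was present in 74.5% of mutant and 92.4% of control members. Gria1, an AMPA receptor subunit, had 42.3 CPM (its share of all UMIs summed over members, scaled to counts per 1e6) in mutant members (36.4 to 48.8) and 283 CPM in control members (267 to 299), a ratio of 0.150 (0.128 to 0.175). Gabrb1, a GABA-A receptor subunit, had 105.5 CPM in mutant and 309 CPM in control members, a ratio of 0.341 (0.306 to 0.380). Cyp26b1, an enzyme that degrades retinoic acid, had 137 CPM in mutant and 427 CPM in control members, a ratio of 0.320 (0.291 to 0.351). In other Slc1a3 positive cells the level of Gria1 was 24.55 CPM (mutant library) and 20.7 CPM (control library), so it set the members apart from their surroundings far more in the control library. The markers, and Gria4 and Timp4 beside them, were chosen with these data in view. Their height in control members and their lower level in mutant members are therefore a description.

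The genes of the rule themselves were close in level, apart from Slc1a3. Gdf10 (GRCm38 chromosome 14, 33923587 to 33937983, plus strand) had 251 CPM in mutant and 272 CPM in control members, and Hopx (chromosome 5, 77086988 to 77115121, minus strand) had 298 and 251 CPM. Slc1a3 had 613 CPM in mutant members and 1305 CPM in control members. A single UMI of Gdf10 carried the call in 91 mutant and 103 control members, a single UMI of Hopx in 98 and 82, and a single UMI of Slc1a3 in 43 and 15. Slc1a3 reached 5 UMIs in 144 of 259 mutant and 246 of 289 control members. These values come from the rule and are given as a description.

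Gdf10 was spread more widely in the mutant library. Gdf10 was found in 22.1% of all kept mutant cells and in 5.41% of kept control cells, and it stood at 119.6 CPM in other mutant Slc1a3 positive cells against 13.9 CPM in other control ones. In mutant cells with Hpse2 and Rgs6, which the rule leaves out, Gdf10 reached 403 CPM. In cells that should lack the gene it was found in 9 of 120 mutant microglia (7.5%, 3.49 to 13.8) and 10 of 156 control microglia (6.41%, 3.12 to 11.5), at median depths of 10078 and 10363.5 UMIs. In mutant erythroid cells Gdf10 was found in 13.4% and in control ones in 2.85%, at medians of 17425 and 17504 UMIs. As values of a rule gene these are a description, and the part of free RNA in them was not tested.

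Hopx and Gdf10 met in the same cell at different rates. Among Slc1a3 positive cells, Gdf10 was found in 34.0% of Hopx positive and 31.9% of Hopx negative mutant cells, and in 23.8% of Hopx positive and 4.79% of Hopx negative control cells. Put as a count, 412 mutant cells held both genes where the product of their separate shares gives 391.8, and 478 control cells held both where the product gives 196. In cells thinned to 3000 UMIs, observed counts were 0.871 times the product in the mutant and 2.01 times in the control library. These are values of the rule's own genes and are given as a description, with nothing about the members drawn from them.

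Cells just outside the rule are given as a description. Cells that lacked only Gdf10 had 18.7 CPM of Gria1 in the mutant library (540 cells) and 18.5 CPM in the control library (799 cells). Gabrb1 in the same cells was 73.9 CPM (mutant library) and 334 CPM (control library), the control value above the 309 CPM of control members, so the markers did not all follow Gdf10. Cells that lacked only Hopx numbered 1063 in the mutant library, with 29.0 CPM of Gria1, and 218 in the control library, with 113 CPM. Hpse2 kept 103 mutant and 6 control cells out, and Aqp4 kept 43 mutant and 174 control cells out. The 174 control cells with Aqp4 had 164 CPM of Gria1, below members, and 394 CPM of Gabrb1, above members.

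**Figure D1:**
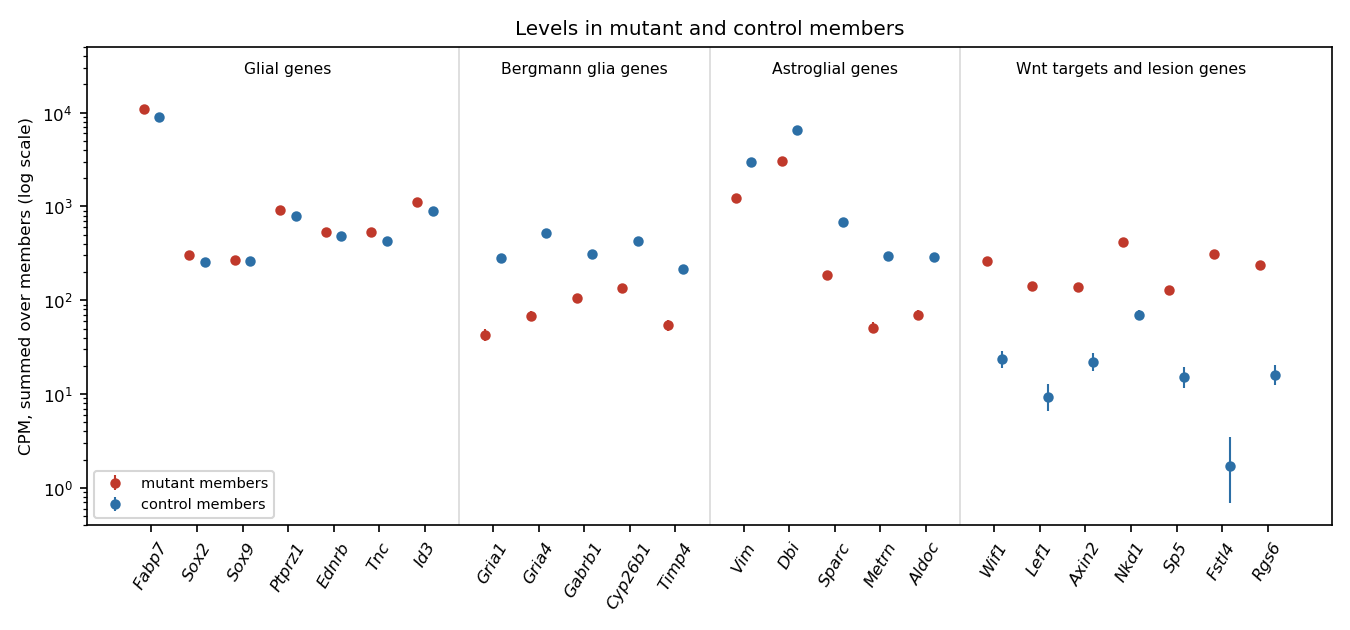
Levels in CPM (log scale) of 24 genes, summed over the 259 mutant members (red, left of each pair) and the 289 control members (blue), with exact Poisson 95% intervals that are often smaller than the points. The genes drawn are a selection. Those labelled glial on the left lie close together, and they include Ptprz1, Tnc and Ednrb of the Bergmann glia list. The Bergmann glia and astroglial genes drawn lie lower in mutant members, and the Wnt targets and lesion genes lie higher. On the full lists, 8 of 17 tested Bergmann glia and 10 of 28 tested astroglial genes were at least 2-fold lower, against 3.13% of all genes.

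Among 20 Bergmann glia genes, 17 reached 20 CPM in either group of members. Of these, 8 were at least 2-fold lower in mutant members and 1 was higher, against 3.13% of all 7530 genes lower and 4.08% higher, and their median log2 ratio was -0.78 against 0.03 over all genes. The lower ones were Gria1, Gria4, Gabrb1, Cyp26b1, Timp4, Sept4, Etv4 and Lfng. Gria4, the AMPA receptor subunit that pairs with Gria1 in these glia, had 68.0 CPM in mutant and 525 CPM in control members, a ratio of 0.130 (0.114 to 0.146). Timp4, an inhibitor of matrix metalloproteinases, had 54.1 CPM in mutant and 216 CPM in control members. Npy, a neuropeptide, was the higher one, with 94.8 CPM in mutant and 38.9 CPM in control members. The same genes had a median of -0.14 in Aqp4 positive Slc1a3 positive cells, with 3 at least 2-fold lower (Gria1, Gria4 and Gabrb1).

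The markers also differed in how many cells held them. Gria1 was found in 16.99% of mutant and 52.25% of control members, Gria4 in 23.2% and 75.8%, Gabrb1 in 31.7% and 59.5%, Cyp26b1 in 51.35% and 77.2%, and Timp4 in 23.55% and 61.6%. In every one of these 5 genes, chosen with the values known, a smaller part of the mutant members was positive. In cells thinned to 3000 UMIs, at least 1 UMI of any of the 5 was present in 118 of 258 mutant members (45.7%, 39.5 to 52.0) and 239 of 282 control members (84.8%, 80.0 to 88.7). In thinned microglia, which should lack them, the share was 7.29% in the mutant and 9.22% in the control library.

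Other glial genes were close in level between the 2 groups of members, 3 of them from the Bergmann glia list itself (Ptprz1, Tnc and Ednrb). Fabp7, the fatty acid binding protein also called Blbp, differed by a ratio of 1.22 (1.205 to 1.238), and it was found in 96.5% of mutant and 98.6% of control members. Sox2, a transcription factor of neural stem cells, had 304 CPM in mutant and 255 CPM in control members, and Sox9, a transcription factor of glial fate, had 266 and 259.8 CPM. Ptprz1, a receptor phosphatase of radial glia, had 916 and 791 CPM. Tnc, the matrix glycoprotein tenascin-C, had 535 and 429.9 CPM, and Ednrb, the endothelin receptor B, had 536 and 480.2 CPM.

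The broader radial glial and astroglial list was mixed. Of 28 list genes tested, 10 were at least 2-fold lower in mutant members and 0 higher, against 3.13% and 4.08% of all genes. The median log2 ratio was -0.38, and -0.08 for the same genes in Aqp4 positive cells. Among the lower ones were S100b, Aldoc, Nes, Ddah1, Vim, Apoe, Aldh1l1, Dbi and Sparcl1. Vim, an intermediate filament protein, had 1219 CPM in mutant and 2965 CPM in control members. Dbi, a ligand of benzodiazepine sites made by glia, had 3035 and 6595 CPM. Aldoc, a glycolytic enzyme of astroglia and Purkinje cells, had 70.3 and 287 CPM. Slc1a2, Glul, Mlc1, Ttyh1, Hepacam and Cst3 differed by less than 2-fold, so the lower genes did not take in the whole list.

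Over all genes, 307 of 7530 reached 2-fold higher levels in mutant members (4.08%) and 236 reached 2-fold lower ones (3.13%). The same count in Aqp4 positive Slc1a3 positive cells (616 mutant and 1411 control cells) gave 78 genes higher (1.05%) and 60 lower (0.809%) of 7417. In all other Slc1a3 positive cells it gave 260 higher (3.47%) and 124 lower (1.65%) of 7502, and in all kept cells 295 higher (4.03%) and 148 lower (2.02%) of 7323. Smaller sums of UMIs scatter more, so these counts do not weigh one cell group against another on their own.

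**Figure D2:**
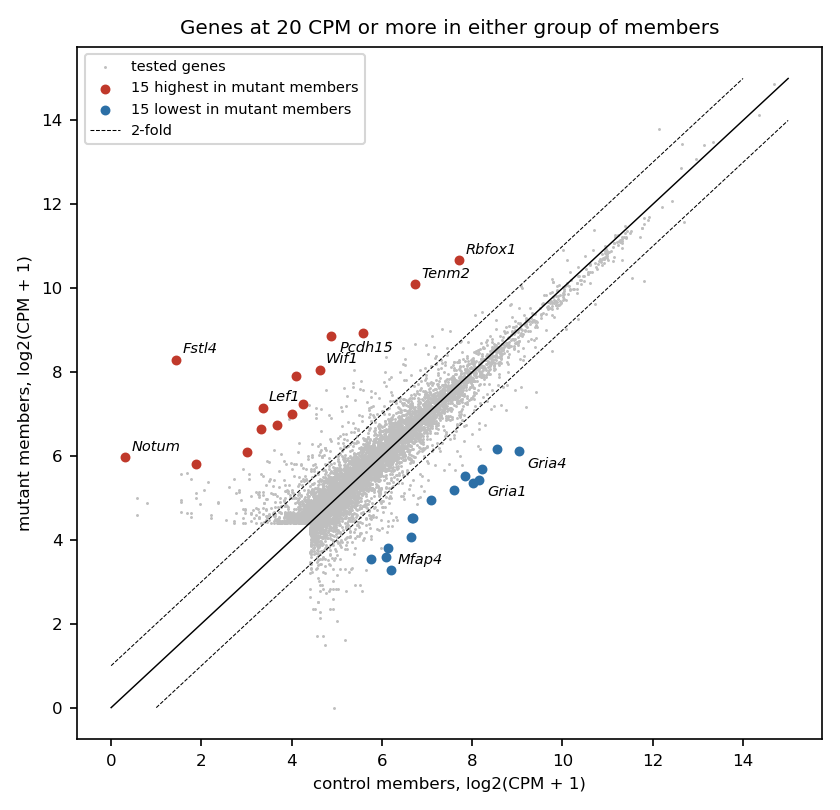
Each grey point is 1 of the 7530 genes at 20 CPM or more in either group of members, with log2(CPM + 1) in control members across and in mutant members up; dashed lines mark 2-fold. Red points are the 15 highest and blue points the 15 lowest genes in mutant members by the naming rule, with Fstl4 and Notum nearly without UMIs in control members and Gria4 and Gria1 among the lowest.

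The 15 lowest genes at 50 CPM or more included Mfap4, Gria4, Gria1, Adarb2, Pdlim3, Metrn, Gramd1b, Opcml, AW047730, Sntb1, Amph, Hmga2, Tagln2 and Ppp1r14c. Metrn, meteorin, a secreted protein of astroglia and radial glia, had 50.9 CPM in mutant members (44.5 to 58.1) and 296 CPM in control members (279 to 313). Metrn was found in 39.4% of mutant and 80.6% of control members. Opcml, a cell adhesion protein of the IgLON family, had 71.0 CPM in mutant and 376 CPM in control members. Hmga2, a chromatin protein of fetal stem cells, had 22.1 and 101.9 CPM. Mfap4, Sntb1 and Amph were under 2-fold in thinned cells, with log2 ratios of -0.72, -0.39 and -0.86. Mfap4 is also a gene of the granule lineage, and at 196 CPM it stood higher in other control Slc1a3 positive cells than the 72.7 CPM of control members. It had 8.64 CPM in mutant members.

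The 15 highest genes were Fstl4, Notum, Pcdh15, Scn3a, Rgs6, Lef1, Wif1, Tenm2, Tmem132c, Cygb, Nrp2, Grm5, Sp5, Asic2 and Rbfox1. Fstl4, a follistatin-like protein, had 313 CPM in mutant members (297 to 330) and 7 UMIs, or 1.70 CPM, in control members. It was found in 39.0% of mutant and 2.42% of control members. Rbfox1, an RNA splicing factor of neurons, had 1619 CPM in mutant and 209 CPM in control members, and Tenm2, a teneurin, had 1092 and 106 CPM. Notum, a secreted inhibitor of Wnt proteins, had 273 UMIs in mutant members and 1 UMI in control members, a ratio of CPM of 255 whose interval runs between 45.4 and 10120.0. Of these 15 genes 13 were lower in mutant members than in the other Slc1a3 positive cells of the mutant library. Rbfox1 and Asic2 were the others. The Slc1a3 positive cells outside members include cells with Hpse2, which the rule keeps out of members. Mutant cells with Hpse2 and Rgs6 had 1082 CPM of Fstl4 and 1060 CPM of Tmem132c. The rule itself therefore favours lower levels in members here.

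These genes were also higher in mutant than in control cells of types that should lack them. Mutant microglia had 158 CPM of Fstl4, 115 CPM of Wif1 and 619.9 CPM of Tenm2, and control microglia had 1.01, 1.35 and 55.3 CPM. Mutant erythroid cells had 129 CPM of Fstl4 and 77.2 CPM of Wif1, and control erythroid cells had 2.94 and 0.693 CPM. Mutant members stood above the higher of the mutant microglia and erythroid levels in 15 of the 15 genes, at least 2-fold above it in 7, with a median of 1.99-fold. The part of free RNA in these values was not tested.

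Targets of Wnt signalling were mostly higher. Of 12 measured, 10 were at least 2-fold higher in mutant members and 0 lower, against 4.08% and 3.13% of all genes. Their median log2 ratio was 2.58, against 1.46 in Aqp4 positive Slc1a3 positive cells and 2.41 in other Slc1a3 positive cells. Lef1, a transcription factor that binds beta-catenin, had 141 CPM in mutant and 9.24 CPM in control members, a ratio of 15.25 (10.99 to 21.8). Axin2, a feedback inhibitor of the pathway, had 140.1 and 22.1 CPM. Nkd1, another feedback inhibitor, had 419 and 70.3 CPM, and Wif1, a secreted inhibitor, had 265 and 23.6 CPM. Sp5, a transcription factor of the Sp family, had 127 and 15.1 CPM, and Tnfrsf19, a receptor of the tumour necrosis factor family, had 149 and 19.95 CPM. Lgr5, a receptor of R-spondins, and Ccnd1, cyclin D1, were the measured genes under 2-fold, with 49.6 and 106.0 CPM in mutant and 33.1 and 203 CPM in control members.

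The sequences before the starts of the Wnt targets were searched for the core of the site that Lef1 and the Tcf factors recognise, CTTTGA, on both strands (TCAAAG on the printed strand). The window was the 250 bases before each start in RefSeq on GRCm38.p6. Of all 32851 promoters 13.8% held the motif, and of 27025 genes 15.8% held it in any of their promoters. Counted per gene, it occurred in 3 of the 7 Wnt targets with a promoter in the table (Lef1, Sp5 and Tnfrsf19), in 4 of 11 of the highest genes, in 2 of 10 of the lowest and in 0 of 14 of the Bergmann glia genes. A match is a run of letters and no evidence of binding, and no match speaks only for this window. The windows of Sp5 and of 1 of the 4 starts of Lef1 are shown because each holds 2 matches, in capitals, and that of Gdf10 because it was the rule gene spread widely in the mutant library and holds 0.
Sp5, chr2:70474673-70474922, plus strand: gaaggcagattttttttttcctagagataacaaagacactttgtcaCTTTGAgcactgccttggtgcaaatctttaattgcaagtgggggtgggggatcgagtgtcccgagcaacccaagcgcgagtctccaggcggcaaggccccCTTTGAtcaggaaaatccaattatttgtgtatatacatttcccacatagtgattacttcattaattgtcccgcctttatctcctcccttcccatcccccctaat
Lef1, chr3:131156044-131156293, plus strand: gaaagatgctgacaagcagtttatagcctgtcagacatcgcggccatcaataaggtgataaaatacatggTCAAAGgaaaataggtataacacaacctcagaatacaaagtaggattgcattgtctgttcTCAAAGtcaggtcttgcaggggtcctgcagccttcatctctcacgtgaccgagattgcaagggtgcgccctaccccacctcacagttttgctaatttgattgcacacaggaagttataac
Gdf10, chr14:33923337-33923586, plus strand: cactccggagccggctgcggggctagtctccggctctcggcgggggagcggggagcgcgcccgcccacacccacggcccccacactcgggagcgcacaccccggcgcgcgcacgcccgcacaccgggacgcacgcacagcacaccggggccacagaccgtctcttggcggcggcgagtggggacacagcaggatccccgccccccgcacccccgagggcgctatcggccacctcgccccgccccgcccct
The matches lie 204 and 104 bases before the start of Sp5 and 180 and 120 bases before that start of Lef1, which lies inside the gene.

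Genes of the lesion-forming cells were higher as well. All 11 measured genes of that list (Fstl4, Adamts19, Rgs6, Pde1a, Cyp1b1, Cygb, Tmem132c, Shox2, Brd7, Gad1 and Cdkn2b) were at least 2-fold higher in mutant members, with a median of 3.33. Among all genes 4.08% were higher. The lesion list was drawn from these libraries, so its direction is not independent evidence. Adamts19, a secreted metalloproteinase, had 192 CPM in mutant and 44.5 CPM in control members. Rgs6, a regulator of G protein signalling, had 237 and 16.1 CPM in members and 1104 CPM in mutant cells selected by Hpse2 and Rgs6. Mutant microglia had 204 CPM of Rgs6. Mutant members stood above the higher of the mutant microglia and erythroid levels for all 11 genes, by at least 2-fold for 7. They were below the other mutant Slc1a3 positive cells for 10 of the 11 genes. Those cells include Hpse2 positive cells, which the rule keeps out of members, so the rule favours this order.

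Bergmann genes and Wnt targets were also counted together in each cell. In cells thinned to 3000 UMIs, at least 2 UMIs of 10 Wnt targets were present in 174 of 258 mutant members (67.4%, 61.4 to 73.1) and 72 of 282 control members (25.5%, 20.6 to 31.0). In thinned microglia the share was 20.8% in the mutant and 1.42% in the control library, and in erythroid cells 23.3% and 4.11%. It was 63.4% and 63.2% in endothelial cells, 42.7% and 42.8% in fibroblasts, and 32.4% and 19.5% in Aqp4 positive Slc1a3 positive cells. Without thinning the readout was present in 94.98% of mutant and 81.3% of control members. Wnt targets without any of the 5 Bergmann genes were present in 102 mutant and 7 control members. Bergmann genes without the Wnt readout were present in 46 mutant and 174 control members, both in 72 and 65, and neither in 38 and 36. The combination most frequent in mutant members was thus nearly absent in control members, and the one most frequent in control members was held by 17.8% of mutant members. Each readout alone also differed between the libraries, with any of the 5 Bergmann genes in 45.7% of mutant and 84.8% of control members. Whether the 2 readouts avoided each other within a library was not tested.

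Mutant members with a low Wnt readout also had fewer transcripts of the 5 Bergmann genes than such control members. In the 84 mutant members with 0 or 1 Wnt UMI the 5 genes summed to 526 CPM (490.1 to 565), against 1626 CPM (1582 to 1671) in the 210 such control members. In members with 2 or more Wnt UMIs they summed to 344 CPM in mutant and 2226 CPM in control members. The 17 measured genes of the Bergmann glia list lay closer at 0 or 1 Wnt UMI, with 3283 CPM in mutant and 3903 CPM in control members. At 2 or more Wnt UMIs the 17 genes summed to 2937 and 5259 CPM. Among mutant members, then, the cells with more Wnt target UMIs had fewer Bergmann transcripts, and among control members they had more.

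With stricter thresholds the difference in Bergmann genes was smaller. With Hopx and Gdf10 at 2 or more UMIs and Slc1a3 at 5 or more, the 5 genes summed to 587 CPM (547 to 629.9) in 70 mutant members and 2008 CPM (1947 to 2070.0) in 131 control members. With 5 or more UMIs of all 3 genes they summed to 727 CPM in 17 mutant and 1900.0 CPM in 23 control members. The 17 measured genes of the Bergmann glia list, in which Ptprz1 weighs most, summed to 3055 CPM in all mutant and 4209 CPM in all control members. They summed to 3691 and 4520 CPM under the stricter rule. With 5 or more UMIs of all 3 genes they summed to 4274 and 4439 CPM, close for these 17 genes. Sums of the measured lesion genes stayed apart. They were 1856 and 231 CPM in all mutant and control members and 1787 and 239 CPM under the stricter rule. With 5 or more UMIs of all 3 genes they were 2262 and 310.5 CPM. In members with 1 to 4 UMIs of Slc1a3 the sum of the 5 Bergmann genes was low in both groups, 193 CPM in 115 mutant and 241 CPM in 43 control members. The 17 genes were higher in those mutant members, at 1996 CPM, than in the control ones, at 1207 CPM. The 5 genes were picked with their values known and the splits use genes of the rule, so these sums are a description.

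The sum of the 5 genes was higher in members with more Gdf10, and the 17 genes showed no such order. Members with 1 UMI of Gdf10 had 294 CPM (mutant) and 1553 CPM (control) of the 5 genes, those with 2 to 4 UMIs 353 and 1618 CPM, and those with 5 or more 551 and 2193 CPM. Over the same steps the 17 genes summed to 2773, 3338 and 3049 CPM in mutant and to 4209, 3800.0 and 4803 CPM in control members. Gria1 went with Gdf10 most plainly, at 24.6, 31.9 and 66.7 CPM over the same steps in mutant members and at 113, 247 and 518 CPM in control members. Gabrb1 had 102.6, 96.5 and 116 CPM in mutant members, and in control members it ran the opposite way to Gria1, at 497, 257 and 184 CPM.

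**Figure D3:**
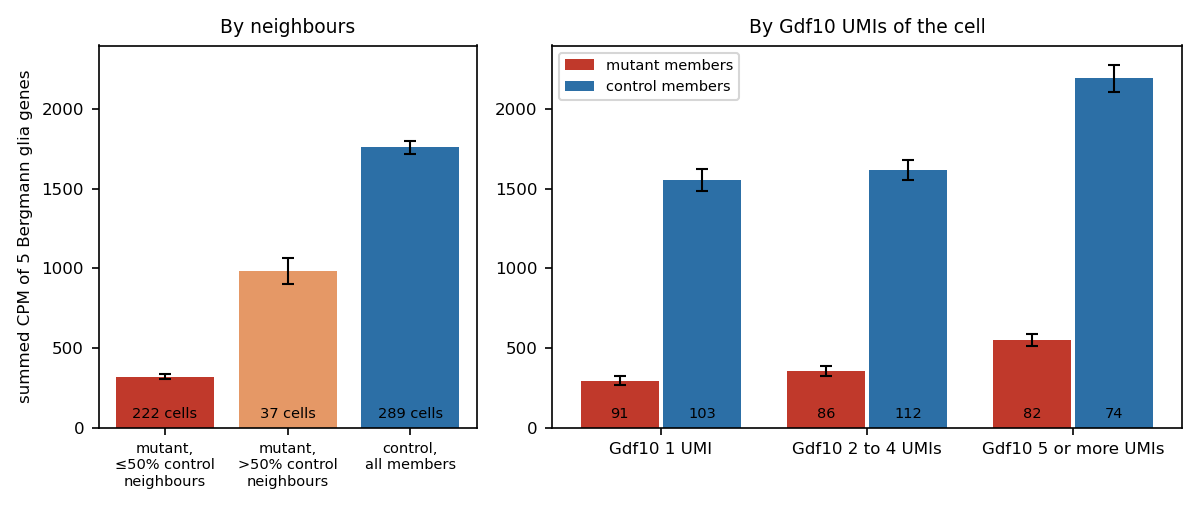
Summed CPM of Gria1, Gria4, Gabrb1, Cyp26b1 and Timp4 with exact Poisson 95% intervals, by nearest neighbours (left) and by the Gdf10 UMIs of the cell (right, mutant bar left of control bar), with cell numbers at the foot of the bars. The 37 mutant members with mostly control neighbours stood at 983 CPM, between the other 222 mutant members at 320.2 CPM and the control members at 1761 CPM, and mutant bars stayed below control bars at each Gdf10 level.

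To place the members among all cells, the 30 nearest neighbours of each cell were found over both libraries together, with the rule genes and the Bergmann, Wnt and lesion lists left out of the search. Mutant members had a median of 0% control cells among their neighbours (mean 17%) and control members 93.3% (mean 85.5%), where 50.5% of all cells were control cells. For microglia the medians were 56.7% in mutant and 60.0% in control cells, and for endothelial cells 43.3% and 46.7%, so cell types outside the neural lineage mixed. Aqp4 positive Slc1a3 positive cells had 56.7% in the mutant and 80.0% in the control library. Members therefore separated by library more than the microglia, endothelial and Aqp4 positive cells. The separation was not particular to members. Mutant cells with Hpse2 and Rgs6 had a median of 0% (mean 4.22%), and those selected by Fstl4 and Adamts19 a median of 0% (mean 1.94%). Granule precursors had medians of 60.0% in the mutant and 86.7% in the control library.

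**Figure D4:**
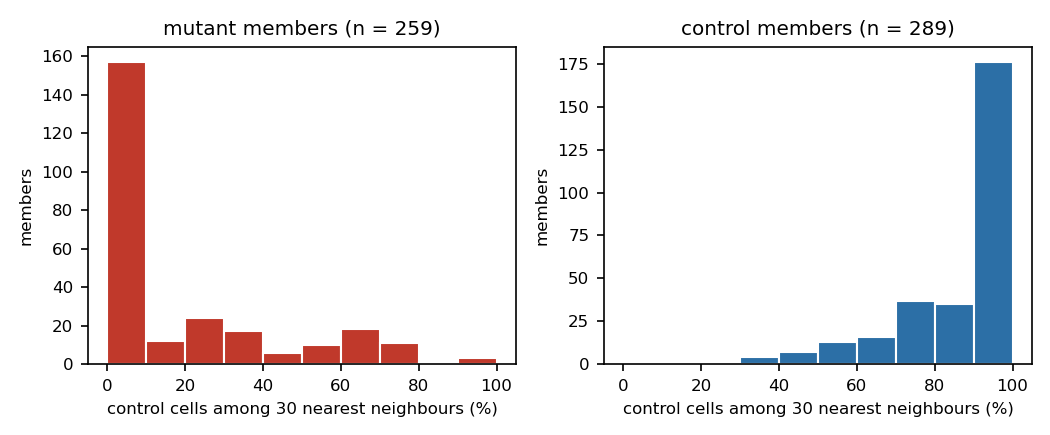
Histograms of members by the percentage of control cells among their 30 nearest neighbours, with the 259 mutant members on the left and the 289 control members on the right; vertical scales differ. Mutant members pile up at 0%, with a smaller group above 50%, and control members pile up at the right edge.

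A minority of mutant members lay among control cells. In 37 of 259 (14.3%) more than 50% of the neighbours were control cells, and 136 had none. The 37 had 983 CPM (903 to 1067) of the 5 Bergmann genes, the other 222 mutant members had 320.2 CPM (303 to 339), and control members 1761 CPM. Their Gria1 was 181 CPM against 21.45 CPM in the 222, their Slc1a3 1106 against 539 CPM, and their Vim 3206 against 921 CPM. Fstl4 was 54.0 CPM in the 37 and 352 CPM in the 222, and Tenm2 186 and 1228 CPM. The Bergmann genes were left out of the search, but genes that vary with them were not, so these values are a description of how the 37 were picked and no independent support.

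Markers of other cell types differed along the same split. Ttr was 282 CPM in the 37 cells, 16430 CPM in the 222 and 4540.0 CPM in control members. Lhfpl3, of the oligodendrocyte precursor list, was 270.1, 16.2 and 166 CPM, and Olig1 104.5, 10.2 and 38.9 CPM. Acta2, a mural cell marker, was 345 CPM in the 37 and 6.57 CPM in control members. The part of such cells in the values of the 37 was not tested. Of the 17 Bergmann genes 2 were at least 2-fold lower than in control members (Gria4 and Sept4), at a background of 2.46% of 7639 genes lower, and the median was -0.45. In the other 222 cells 8 were lower and 1 higher, at backgrounds of 3.96% and 4.47%, with a median of -0.94. Of 10 measured Wnt targets 7 were at least 2-fold higher in the 37 cells than in control members, at a background of 3.38% higher. Lef1 stood at 41.8 CPM, Wif1 at 101.1 CPM and Axin2 at 47.05 CPM. Mutant microglia, which should lack them, had 55.75 CPM of Lef1, 115.2 CPM of Wif1 and 30.47 CPM of Axin2. The part of free RNA in the Wnt targets of the 37 cells was not tested. Smarca4 had 28 UMIs in the 37 cells, 48.8 CPM, against 36.1 CPM in the 222 and 46.7 CPM in control members. Its ratio to control members, 1.045, had an interval of 0.676 to 1.56. Recombination of either allele was not measured in these cells.

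Named classes among the neighbours depend on class size. With neighbours taken within the own library, other members were the most frequent class for 6 of 259 mutant members (2.32%) and for 117 of 289 control members (40.5%), and the remaining Slc1a3 positive cells for 62.5% and 28.4%. Counted over all neighbours, other members made up 11.1% of those of mutant members, against 1.4% of that library, and 29.9% of those of control members, against 1.62% of that library. When mutant members were matched to the control library alone, Aqp4 positive cells came first for 69 (26.6%), remaining Slc1a3 positive cells for 63 (24.3%) and control members for 48 (18.5%). Relative to class size, control members came first of these 3 classes. They were 17.3% of those neighbours and 1.62% of the control library, Aqp4 positive cells 23.1% and 8.03%, and remaining Slc1a3 positive cells 27.5% and 22.9%. Over 10057 genes, the summed profile of mutant members had a Pearson r of 0.976 with other mutant Slc1a3 positive cells, of 0.965 with mutant cells holding Hpse2 and Rgs6 and of 0.945 with control members. The profile of control members had 0.962 with control Aqp4 positive cells and 0.957 with other control Slc1a3 positive cells. Profiles from 1 library share its free RNA and its preparation, so these values describe the libraries as well as the cells.

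Genes high in control members were looked up in mutant members, a choice that favours lower values there. Beside Gria1, the genes most raised in control members over other control Slc1a3 positive cells were Fgf15, Ano1, Shroom3, Adgrg6, Pcp4l1, Cpne8 and Atp1b1, by the log2 ratio over 289 and 7420 cells. In mutant members Fgf15, a secreted growth factor of the FGF family, had 55.7 CPM, against 26.3 CPM in other mutant Slc1a3 positive cells. In control members it had 129 CPM, against 6.94 CPM in other control ones. Across all genes, 33 (0.442%) of 7466 stood at least 2-fold higher in mutant members than in their surroundings and 212 (2.83%) of 7480 in control members. Lower were 114 (1.53%) in mutant and 309 (4.13%) in control members.

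Receptor genes were split. Of 16 tested glutamate and GABA receptor genes, 6 were at least 2-fold lower and 5 higher in mutant members. Among all genes 3.13% were lower and 4.08% higher. Beside Gria1, Gria4 and Gabrb1, the lower ones were Grm3, a metabotropic receptor of astroglia, Gabra4 and Gria3. Grm3 had 200.1 CPM in mutant and 539.6 CPM in control members. Grm5, Grik1, Gabrg1, Gabra2 and Gabrb2 were higher. Grm5, a metabotropic receptor coupled to calcium release, had 105 CPM in mutant and 11.7 CPM in control members, and Gabra2 had 96.0 and 24.1 CPM. Microglia had 50.5 CPM of Grm5 (mutant library) and 35.1 CPM (control library).

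Of 6 tested retinoid genes 3 were at least 2-fold lower (Cyp26b1, Rxrg and Dhrs3) and 1 higher. Of 18 factors of the NFI and stem cell list, Nfix, Sox1 and Sox8 were at least 2-fold lower and 0 higher. The shares over all genes were 3.13% lower and 4.08% higher. Nfix, a glial transcription factor, had 91.7 CPM in mutant and 254 CPM in control members, while its relatives Nfia (808 and 920.0 CPM) and Nfib (729 and 870.2 CPM) were close. Zic1 and Pax3, patterning factors of the dorsal hindbrain, had 330.2 and 262 CPM in mutant and 297 and 332 CPM in control members. Pax6 and En2 differed more, with 70.7 and 27.75 CPM in mutant and 140.1 and 50.8 CPM in control members.

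**Figure D5:**
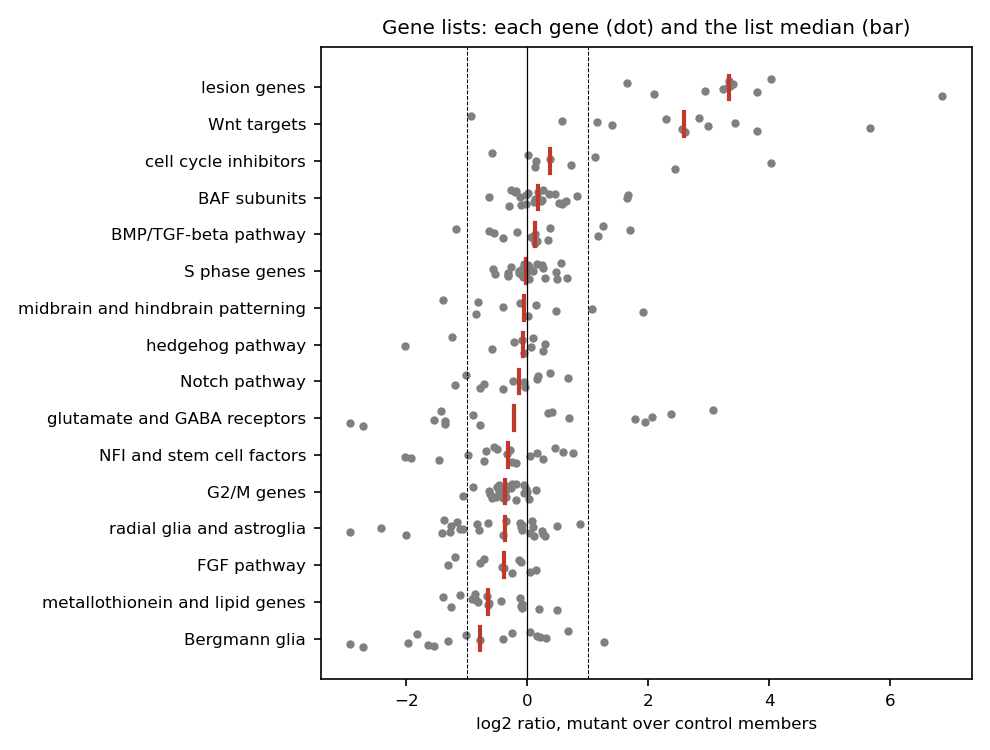
Log2 ratio of CPM + 1, mutant over control members, for the tested genes (dots) of 16 of the lists (the retinoid list, with a median of -0.998, is not drawn), with the list median as a red bar; dashed lines mark 2-fold. Lesion genes and Wnt targets lie to the right, Bergmann glia genes lie mostly to the left, and receptor genes spread both ways.

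In signalling lists other than Wnt, genes at least 2-fold lower made up a larger share than among all genes (3.13%), on small numbers. Higher genes did so only in the BMP and TGF-beta list (4.08% of all genes). Notch genes had 2 of 12 lower (Jag1, a ligand, and Lfng, a glycosyltransferase that modifies Notch) and 0 higher, and the effectors Hes1 and Hes5 had 60.3 and 204 CPM in mutant and 99.7 and 212 CPM in control members. Hedgehog genes had 2 of 10 lower, the inhibitor Hhip and Mycn (12.3 and 30.65 CPM, in the opposite direction in thinned cells), and the receptor Ptch1 had 119 and 124 CPM. Of 11 FGF genes 2 were lower, Fgf15 and Etv4, and Spry2, a feedback inhibitor, had 74.6 and 98.0 CPM. BMP and TGF-beta genes had 3 of 15 higher and 1 lower. The higher ones were Bmpr1b, a receptor (331 and 147 CPM), Msx1, a target (84.2 and 34.8 CPM), and Nog, a secreted inhibitor (50.9 and 15.1 CPM), and the lower one was Tgfb2, a ligand (22.7 and 52.8 CPM). Id1, Id2, Id3 and Id4, targets of BMP signalling, were all within 2-fold.

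Cell cycle genes differed little. Of 29 tested S phase genes 0 differed by 2-fold, and of 27 G2/M genes 1 was at least 2-fold lower (Cenpa), with medians of -0.02 and -0.37. Over all genes 3.13% were lower, so 1 of 27 lay near that share. Mki67 was found in 26.6% of mutant and 33.6% of control members, and Top2a had 216.5 and 213 CPM. Of 9 tested inhibitors 3 were higher, against 4.08% of all genes. Cdkn1a, an inhibitor induced by p53, had 58.2 CPM in mutant and 9.97 CPM in control members, and mutant microglia had 260.2 CPM of it. Cdkn2b had 102 and 2 UMIs, a ratio of CPM of 47.7 (12.9 to 399), and Gadd45g had 120.5 and 55.2 CPM.

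Among chromatin genes, 2 of 26 BAF subunits were higher and 0 lower, against 4.08% and 3.13% of all genes. Brd7, a subunit of the PBAF form, had 287 CPM in mutant and 90.7 CPM in control members, and Dpf3 had 23.9 and 6.81 CPM. Smarca4 itself (chromosome 9, 21616169 to 21704230, plus strand) had 37.8 CPM in mutant and 46.7 CPM in control members, a ratio of 0.808 (0.653 to 1). Ctnnb1 (chromosome 9, 120929216 to 120960507, plus strand) had 169 and 203 CPM, a ratio of 0.835 (0.755 to 0.923). Tags at the 3' end lie outside exon 3 of Ctnnb1, so neither recombination nor its absence was checked in these cells by that gene.

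The remaining lists are read against the same shares of all genes, 3.13% lower and 4.08% higher. In adhesion genes Cdh13 was higher and Cdh4, Cdh20 and Cdh11 lower among 14. In matrix genes Ncan and Tnr were higher and Sparc and Sparcl1 lower among 18. Sparc, a secreted glycoprotein of radial glia, had 184 CPM in mutant and 676 CPM in control members. Of 17 metallothionein and lipid genes 3 were lower (Apoe, Fads1 and Insig1). Of 15 immediate early and stress genes 2 were lower, Hspa1a and Hspa1b, inducible heat shock proteins of nearly identical sequence whose reads may be shared between them. Meis2 and Gbx2 were higher and Barhl1 lower (the reverse in thinned cells) among 10 patterning genes, and Ddit4 was higher among 12 hypoxia and glycolysis genes.

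Markers of other cells were measured in the same sums. Choroid plexus markers summed to 14430 CPM in mutant and 4595 CPM in control members, nearly all from Ttr. Ttr, transthyretin, was found in 97.3% of mutant and 79.2% of control members, and microglia had 3962 CPM of it (mutant library) and 5203 CPM (control library). The log2 ratio of Ttr was 1.66, and 0.89 without the members that met another marker rule. It was 0.76 with Slc1a3 at 5 UMIs or more and 0.82 with Aqp4 and Hpse2 left free. In the other alternatives it stayed at least 2-fold. The part of choroid plexus cells or free RNA in the differences between members was not tested. Erythroid markers summed to 57840 and 50840 CPM, endothelial markers to 19.1 and 22.9 CPM, and microglial markers to 27.1 and 67.1 CPM. Neuronal markers summed to 1599 and 1657 CPM with 1 of 13 at least 2-fold higher (Snap25) and 0 lower. Granule lineage markers were lower, at 302 and 545 CPM, with Mfap4, Neurod1 and Barhl1 at least 2-fold lower among 7 tested. This was not particular to members. Their median log2 ratio was -0.98 in members, -1.35 in Aqp4 positive Slc1a3 positive cells and -1.42 in all kept cells. Neurod1 came under 2-fold with doublets left out, at a log2 ratio of -0.95. Oligodendrocyte precursor markers summed to 245 and 379 CPM, fibroblast markers to 175 and 144 CPM, and roof plate markers to 357 and 243.5 CPM.

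Some members also met the marker rule of another class. This was so for 37 mutant members (14.3%) and 27 control members (9.34%), with choroid plexus the most frequent in the mutant library (13 cells) and granule precursors in the control library (11 cells). Scrublet called 31 mutant members (12%, 8.28 to 16.6) and 34 control members (11.8%, 8.29 to 16.1) as doublets, against 4.45% and 5.81% of all kept cells. With the called doublets left out, and then in turn without the cells that met another rule, the counts changed little: 8 and 7 Bergmann genes were at least 2-fold lower and 9 and 10 Wnt targets at least 2-fold higher.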

How the data were processed

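The deposited count matrices hold UMI counts per gene and barcode, for which the submitters' processing notes name Cell Ranger 7.0.1 and mm10; how the authors called cells and treated introns was not recorded there. The libraries hold 21596 mutant and 21457 control barcodes. Raw counts of kept barcodes were summed over members in each library, scaled to CPM and compared as log2 of CPM + 1 (pseudocount 1) for genes at 20 CPM or more in either group. The 15 highest and 15 lowest genes are those furthest from 0 at 50 CPM or more; up to 6 genes of a list were also named by rule, and any beyond them after their values were seen. Members, lists and comparisons were chosen with earlier results of these data known. Neighbours were found with 30 principal components of the most variable genes, without integration, and doublets called with Scrublet at an expected rate of 16%. Thinning drew 3000 UMIs per cell and left out 1 mutant and 7 control members. Promoters came from RefSeq, and gene positions from GENCODE M21, which held 32235 of 32285 IDs. Python 3.11.15, scanpy 1.11.5, numpy 2.4.6, scipy 1.17.1 and pandas 2.3.3 were used. The summing and intervals were tested on simulated data. Some genes among those named by rule are not reported here.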

Additional observations from a re-analysis of the deposited data

How the results depend on the processing

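No paired analysis was possible because each genotype had 1 pooled library, and no replicate could be left out. Across 14 alternatives the count of Wnt targets at least 2-fold higher in mutant members stayed within 1.5 times its value of 10. In cells thinned to 3000 UMIs, which left 55 mutant and 125 control members, the ratio of member shares was 0.438 against 0.914. There 1078 of 8076 genes were at least 2-fold higher and 896 lower, against 307 and 236 of 7530 in the main run. A filter at 50 CPM gave 170 higher and 117 lower of 4016 genes, with 5 of 12 Bergmann glia genes lower. No filter gave 896 higher and 771 lower of 20142 genes. With Hopx and Gdf10 at 2 UMIs or more, 6 radial glia and astroglia genes were lower, against 10. With Slc1a3 at 5 UMIs or more, an alternative chosen after seeing the data, the ratio of shares was 0.597. In thinned cells the log2 ratio of Barhl1 was 1.84 (against -1.39) and that of Mycn 0.30 (against -1.25). The log2 ratio of Acta2, a mural cell marker, was 2.78 and became -1.56 with Hopx and Gdf10 at 2 UMIs or more, -3.17 in thinned cells and -0.84 with Slc1a3 at 5 UMIs or more. Of 2744 values of 196 named genes these 5 reversed, and 73 of the 1386 values of genes past 2-fold came under it, in 36 genes; the causes were not tested. Thinned sums hold fewer UMIs, so low genes scatter more there.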
